A study of Mus musculus with 15 samples.

Results

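The genes described here are those of the mouse major histocompatibility complex (MHC), called H2 in mice, together with the genes that supply, load and switch on its products. Members were chosen by name from the deposited table, as every gene whose symbol starts with H2- plus B2m, Cd74, Ciita, Tap1, Tap2, Tapbp and Nlrc5. This gave 39 of 22526 gene symbols, 32 with an H2- name and 7 named singly. By the letters of their names, 27 belong to class I, 11 to class II and 1 to neither, H2-Ke6, which is named for its place in the locus. In the GENCODE M21 annotation (GRCm38), 35 of the 39 lie on chromosome 17, and B2m, Nlrc5 and Ciita lie on chromosomes 2, 8 and 16.

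RNA was sequenced from cerebral vessels isolated from wild-type C57BL/6 mice aged 8 months, in 15 libraries, 5 in each of 3 groups. The GFP-Veh group received an adeno-associated virus carrying green fluorescent protein (AAV-GFP) by stereotactic injection into the brain, followed by saline. GFP-AL had AAV-GFP and was then given AngII (angiotensin II) plus L-NAME, which blocks nitric oxide synthesis, a drug pair that raises blood pressure. LH3-AL received the same drugs after AAV-LH3, a virus carrying the collagen-modifying enzyme LH3. The series concerns spontaneous intracerebral haemorrhage under hypertension. No group had AAV-LH3 with saline, all 3 groups carried a virus, and which promoter drives the transferred genes was not given in the sources used here. Labels list each library as its own sample without saying whether it came from its own mouse, so p-values measure the spread between these samples. In bulk RNA, fewer cells of a type and less RNA per cell cannot be told apart.

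Class I molecules pair an MHC-encoded heavy chain, such as H2-K or H2-D, with beta-2-microglobulin (B2m) and show peptides from inside the cell to CD8 T cells. The peptides are pumped into the endoplasmic reticulum by the transporter Tap1-Tap2 and loaded with the help of tapasin (Tapbp). Nearly all nucleated cells carry class I, and endothelium is rich in it. Class II molecules pair an alpha with a beta chain (H2-Aa with H2-Ab1 in the A molecule), are escorted by the invariant chain Cd74, and are loaded in endosomes with the help of H2-DM. They show peptides from outside the cell to CD4 T cells and are made mainly by dendritic cells, macrophages and B cells, which in the brain sit around vessels and in the meninges and choroid plexus. Nlrc5 is the transactivator of class I genes and Ciita that of class II genes. C57BL/6 mice carry the b haplotype of the MHC, which makes no E molecule at the surface for want of the alpha chain, although Eb1 is transcribed.

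Promoters of both classes share a short control module, the W/S, X and Y boxes, of which the Y box binds the factor NF-Y, and class I promoters add an element that binds interferon regulatory factors. RefSeq promoter windows (GRCm38.p6, 250 bases before to 50 after the start) were used for 27 of the 39 genes, and Cd74 was left out by choice. From these windows 8 stretches are shown, all of them upstream of the annotated start. B2m and H2-K1 stand for ubiquitous class I, H2-Q6 and H2-Q7 for near-identical neighbours, H2-Q10 for the low class I gene that stood higher in every GFP-AL library, and H2-Aa, H2-Eb1 and H2-Ob for class II. Capitals mark the letters GATTGG (the Y box core, or its reverse complement CCAATC) and TTTCNNTT (an interferon-type element, or its reverse complement), searched on both strands. The 2 patterns could share letters, and in the stretches shown they do not.
H2-K1, chr17:34000348-34000447, minus strand: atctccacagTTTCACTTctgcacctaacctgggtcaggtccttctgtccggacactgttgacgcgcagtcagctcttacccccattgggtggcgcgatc
B2m, chr2:122147537-122147651, plus strand: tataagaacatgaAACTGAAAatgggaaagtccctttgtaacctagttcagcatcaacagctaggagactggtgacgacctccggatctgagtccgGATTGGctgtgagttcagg
H2-Q6, chr17:35424690-35424814, plus strand: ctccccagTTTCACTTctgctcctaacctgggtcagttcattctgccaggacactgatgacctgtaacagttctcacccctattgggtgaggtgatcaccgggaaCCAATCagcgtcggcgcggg
H2-Q7, chr17:35439035-35439153, plus strand: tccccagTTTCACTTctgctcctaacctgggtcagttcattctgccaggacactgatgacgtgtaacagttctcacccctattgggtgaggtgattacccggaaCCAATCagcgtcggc
H2-Q10, chr17:35469926-35470050, plus strand: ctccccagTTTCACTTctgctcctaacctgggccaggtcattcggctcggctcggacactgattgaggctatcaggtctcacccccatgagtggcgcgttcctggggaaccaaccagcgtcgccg
H2-Aa, chr17:34287849-34287918, minus strand: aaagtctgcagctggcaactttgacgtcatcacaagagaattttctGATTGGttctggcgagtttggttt
H2-Eb1, chr17:34305762-34305841, plus strand: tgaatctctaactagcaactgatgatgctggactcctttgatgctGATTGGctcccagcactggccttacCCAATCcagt
H2-Ob, chr17:34238800-34238879, plus strand: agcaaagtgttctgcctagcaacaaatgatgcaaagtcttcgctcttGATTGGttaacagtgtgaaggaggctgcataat
GATTGG was present in the windows of 11 of 18 class I genes and 7 of 8 class II genes, against 16.6% of 27025 promoters. TTTCNNTT was present in 13 of 18 class I and 3 of 8 class II windows, against 24.2% of all promoters. In H2-K1 the GATTGG match lies in the window but outside the stretch shown. The H2-Aa window likewise held a TTTCNNTT match that the stretch shown does not hold in full. The H2-Q10 window held the interferon-type letters and no GATTGG, while those of its neighbours H2-Q6 and H2-Q7 held both. A match of letters is a description of the window, not a bound site.

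The spacing of the lowest values put depth at 13.5 to 16.25 M fragments (M, mega) for GFP-Veh 1 to 4, 30.2 M in GFP-Veh 5 and 18.4 to 32.15 M for GFP-AL and LH3-AL. Plod3, which encodes LH3, lay between 16.0 and 17.6 FPKM (fragments per kilobase of transcript, scaled to library size) for GFP-Veh, between 12.2 and 14.9 for GFP-AL and between 19.5 and 23.2 for LH3-AL. Every LH3-AL library thus exceeded all others. On the log2 scale LH3-AL exceeded GFP-AL by 0.60 (limma adjusted p = 1.07e-04), and GFP-AL lay 0.25 below GFP-Veh (adjusted p = 0.0216). The difference of 0.34 between LH3-AL and GFP-Veh was not called (adjusted p = 0.0628). Endothelial markers summed to 1761 to 2516 FPKM in GFP-Veh, 2210 to 3134 in GFP-AL and 1771 to 2234 in LH3-AL. Mural cell markers summed to 1427 to 1792, 1010 to 1434 and 1248 to 1725 in the same order. The vessel preparation thus carried the transcripts of its tissue. Of the 13082 genes that averaged 1 FPKM or more, limma called 3737 in GFP-AL against GFP-Veh (37.9% of them higher), 3723 in LH3-AL against GFP-AL (59.8% higher) and 68 when LH3-AL was set against GFP-Veh. With median-of-ratios scaling the shares higher in the first 2 comparisons were 51.8% and 48.5%. The comparisons share libraries (GFP-AL is in both of the first 2), so opposite signs in them are not independent.

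Most MHC and antigen presentation genes did not pass the test in any comparison. Of the 39 genes, 25 passed the filter on low values and were tested, 18 of class I, 6 of class II and H2-Ke6. In GFP-AL against GFP-Veh, limma on log2(FPKM + 1) called 3 of the 25 at an adjusted p below 0.05 (12%), against 28.6% of all genes tested. All 3 were class I genes and lower, H2-T24, H2-K2 and H2-Q1 (17.7% of all genes were called lower and 10.8% higher). For LH3-AL against GFP-AL it called 4 of 25 (16%), against 28.5% of all genes. H2-T24 and H2-Q1 were higher, against 17.0% of all genes, and H2-D1 and H2-DMb1 were lower, against 11.4%. In LH3-AL against GFP-Veh none of the 25 was called by limma, against 0.520% of all genes (0.145% higher and 0.375% lower), and 2 of the 25 had an unadjusted p below 0.05. The ranges of 5 libraries per group were separate for 2 of the 25 genes in GFP-AL against GFP-Veh (16.7% of all genes), for none in LH3-AL against GFP-AL (19.4%) and for none in LH3-AL against GFP-Veh (4.67%).

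**Figure D1:**
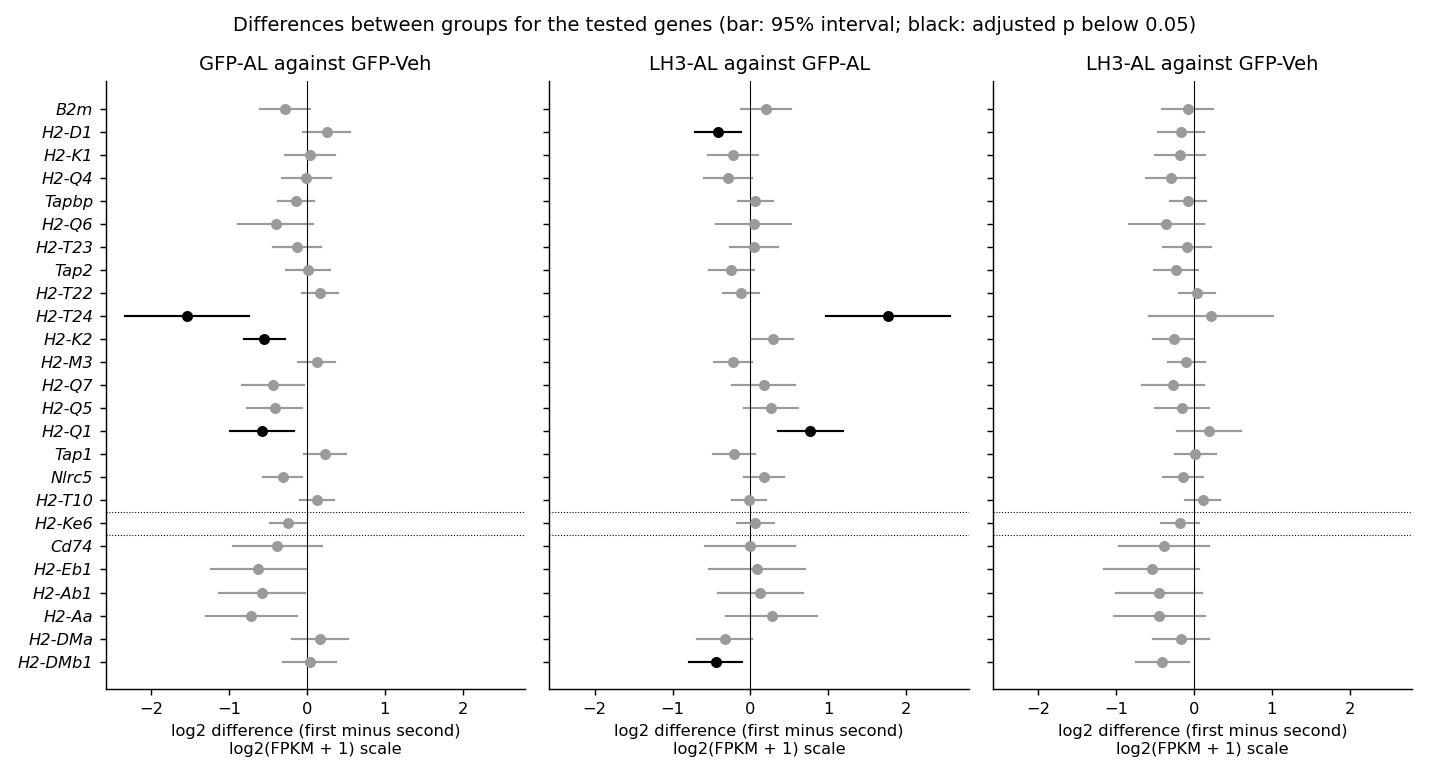
Log2 difference on the log2(FPKM + 1) scale (x axis) for the 25 tested genes (y axis, class I above, H2-Ke6, then class II below) in 3 comparisons of groups of 5 libraries. Points are limma estimates, bars 95% confidence intervals and black marks genes called at adjusted p below 0.05; 3, 4 and 0 genes are black, and H2-T24 lies farthest from 0 in the first 2 panels.

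Class II had the lower median in the comparisons with GFP-Veh; the difference between classes was not tested. Class I genes tested had a median log2 difference of -0.14 in GFP-AL against GFP-Veh, beside -0.09 for all genes, and class II genes one of -0.48. In LH3-AL against GFP-AL the medians were 0.04 for either class, beside 0.08 for all genes. In LH3-AL against GFP-Veh they were -0.12 for class I and -0.43 for class II, beside -0.01 for all genes. None of the 6 class II genes was called by limma in GFP-AL against GFP-Veh, while 3 had an unadjusted p below 0.05. Choroid plexus holds class II cells, and the protocol names its removal, yet its transcripts were present in every library. Its markers summed to 3622 to 9123 FPKM in GFP-Veh, 1958 to 3073 in GFP-AL and 3122 to 5200 in LH3-AL. Of 4 of its markers 3 fell in GFP-AL against GFP-Veh (17.7% of all genes did), Kcne2 by 2.32, Ttr by 0.88 and Folr1 by 0.52. Kcne2 and Clic6 rose in LH3-AL against GFP-AL (17.0% of all genes), by 2.05 and 0.50. Folr1 was not called under either other scaling or without GFP-Veh 2, GFP-AL 2 and GFP-AL 3, and the call of Clic6 was lost without those 3 libraries. The part of these cells in the class II values was not tested.

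**Figure D2:**
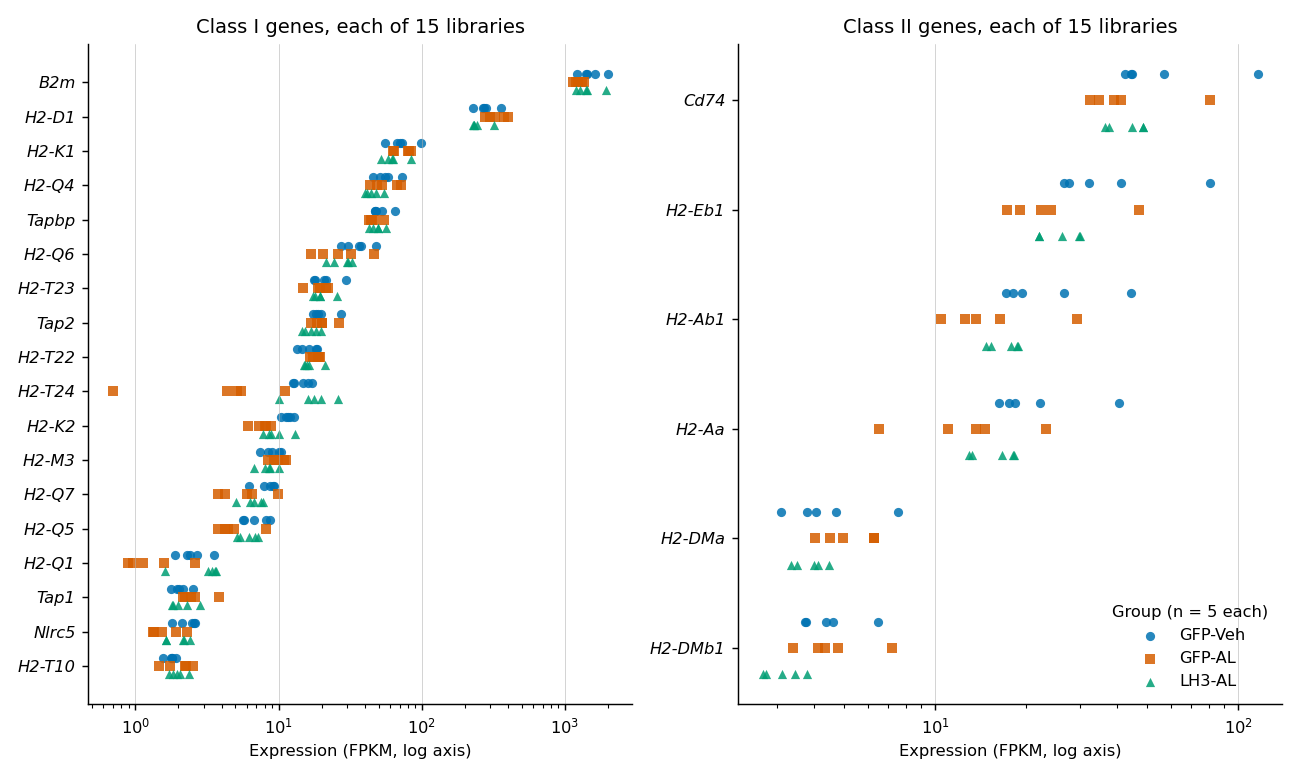
Expression (FPKM, log axis) of the tested class I (left) and class II (right) genes in each of 15 libraries, coloured by group (n = 5 each). B2m is highest among class I, with 1129 to 1987 FPKM, and 1 GFP-Veh library lies far to the right for Cd74, H2-Eb1, H2-Ab1 and H2-Aa.

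H2-T24 had the largest difference of the 25 tested genes in GFP-AL against GFP-Veh and in LH3-AL against GFP-AL. It is a nonclassical class I gene of the T region (chromosome 17, 36005695 to 36020560, minus strand). It read 17.2, 12.7, 16.1, 12.6 and 14.8 FPKM across GFP-Veh 1 to 5, 5.47, 4.38, 0.698, 11.1 and 5.14 across GFP-AL 1 to 5 and 19.8, 10.0, 16.0, 17.8 and 25.9 across LH3-AL 1 to 5. All GFP-AL libraries lay below all GFP-Veh libraries, GFP-AL 3 was lowest, and GFP-AL 4 overlapped only with LH3-AL 2. H2-T24 fell by 1.54 ± 0.37 (SE) on the log2 scale in GFP-AL against GFP-Veh (limma adjusted p = 0.00673; exact two-sided permutation p = 0.00794, the smallest that 5 against 5 can give). The LH3-AL libraries exceeded those of GFP-AL by 1.76 ± 0.37 (adjusted p = 0.00354; exact permutation p = 0.0159). LH3-AL and GFP-Veh differed by 0.22, with an interval from -0.57 to 1.02. Its neighbour H2-T23, which encodes the class I molecule Qa-1 and lies next to it in the same orientation, was not called. The ratio of H2-T24 to H2-T23, which a scaling factor per library cannot alter, was 0.431 to 0.827 in GFP-Veh, 0.0326 to 0.500 in GFP-AL and 0.577 to 1.02 in LH3-AL. GFP-AL 3 also had the highest red cell marker sum, 15561 FPKM. The next highest, 9858 FPKM, was in GFP-AL 4, which had the highest H2-T24 of its group. LH3-AL 5, highest of all for H2-T24, had a sum of 8287 FPKM. All 4 red cell markers rose in GFP-AL against GFP-Veh (10.8% of all genes did). The part of red cells in the H2-T24 values was not tested.

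H2-Q1 and the pseudogene H2-K2 were the other class I genes lower in GFP-AL. H2-Q1, of the Q region (chromosome 17, 35320405 to 35325099, plus strand), read 2.40, 3.54, 1.90, 2.69 and 2.29 FPKM across GFP-Veh, 2.60, 0.896, 1.58, 1.12 and 0.962 across GFP-AL and 3.65, 3.62, 3.23, 3.42 and 1.62 across LH3-AL. GFP-AL 1 lay among the GFP-Veh libraries and LH3-AL 5 among the GFP-AL libraries. In the LH3-AL libraries it exceeded GFP-AL by 0.77 ± 0.19 (SE; limma adjusted p = 0.0101; exact permutation p = 0.0159). It fell by 0.58 ± 0.19 in GFP-AL against GFP-Veh (limma adjusted p = 0.0373), a call lost in 14 of 19 alternatives, including the omission of any of GFP-Veh 1, 2, 4 and 5 or GFP-AL 2, 3, 4 and 5 (adjusted p 0.0502 to 0.0834). H2-K2, annotated as a transcribed pseudogene beside H2-K1 (chromosome 17, 33974659 to 33978827, minus strand), read 10.5, 12.8, 11.7, 11.4 and 11.9 FPKM across GFP-Veh, 8.10, 7.26, 8.22, 6.08 and 8.83 across GFP-AL and 7.77, 13.1, 8.92, 8.58 and 10.1 across LH3-AL. All GFP-AL libraries were below all GFP-Veh libraries, and LH3-AL spread over both ranges. H2-K2 fell by 0.55 ± 0.12 in GFP-AL against GFP-Veh (limma adjusted p = 0.00424; exact permutation p = 0.00794). It differed by 0.29 ± 0.12 in LH3-AL against GFP-AL and was not called (adjusted p = 0.0918). The K, D, Q and T genes are close copies of each other, and the counting of reads that fit several of them was not given in the sources used here, which leaves the split between copies uncertain.

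**Figure D3:**
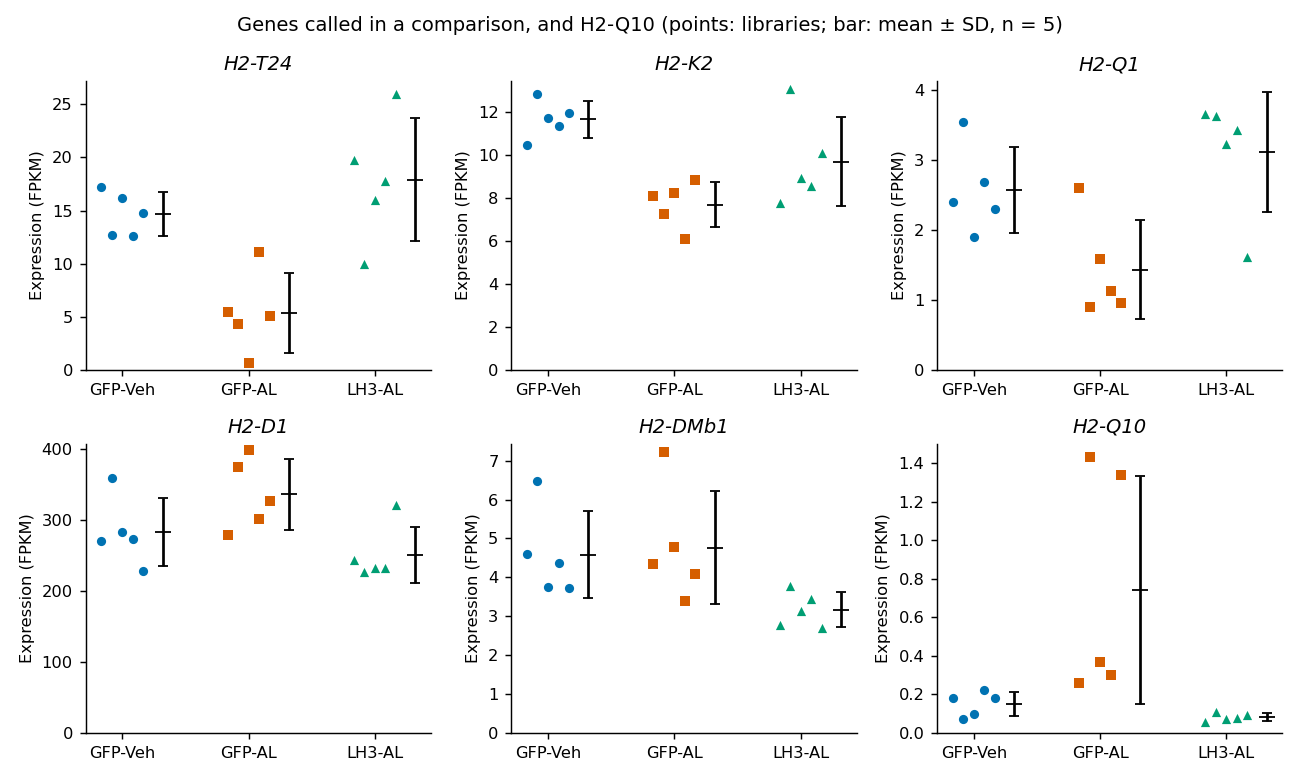
Expression (FPKM, y axis) of the 5 genes called in a comparison and of H2-Q10 in each library of GFP-Veh, GFP-AL and LH3-AL (x axis), with the mean ± SD (n = 5). H2-T24 and H2-K2 show GFP-AL below GFP-Veh without overlap, and H2-Q10 stays at or below 0.221 outside GFP-AL.

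The classical heavy chains H2-K1 and H2-D1 were not called in GFP-AL against GFP-Veh, and H2-D1 fell in LH3-AL against GFP-AL. H2-K1 (chromosome 17, 33996017 to 34000347, minus strand) read 67.6, 98.4, 72.3, 70.3 and 55.7 FPKM across GFP-Veh, 63.8, 84.0, 79.7, 63.4 and 81.0 across GFP-AL and 61.5, 63.1, 52.1, 58.0 and 83.6 across LH3-AL. The 3 groups overlapped, and the difference between GFP-AL and GFP-Veh was 0.04 with an interval from -0.28 to 0.36. H2-D1 (chromosome 17, 35262730 to 35267499, plus strand) read 270, 359, 282, 272 and 228 FPKM across GFP-Veh, 279, 374, 398, 301 and 326 across GFP-AL and 243, 227, 232, 232 and 321 across LH3-AL. LH3-AL 5 stood above the other LH3-AL libraries and was the one that overlapped with GFP-AL. H2-D1 fell by 0.42 ± 0.14 (SE) in LH3-AL against GFP-AL (limma adjusted p = 0.0365; exact permutation p = 0.0238). That call was lost in 11 of 20 alternatives, with quantile normalization (-0.11, adjusted p = 0.445) and without any of GFP-AL 2, 3 and 5 or LH3-AL 1 to 4 (adjusted p 0.0521 to 0.0904). GFP-AL against GFP-Veh gave 0.25 ± 0.14 for H2-D1, which was not called (adjusted p = 0.190).

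B2m, the light chain of class I molecules, was the most abundant of the genes per length, with a mean of 1404 FPKM against 289.5 for H2-D1 and 70.3 for H2-K1. It read 1404, 1987, 1609, 1420 and 1217 FPKM across GFP-Veh, 1226, 1321, 1129, 1184 and 1352 across GFP-AL and 1398, 1269, 1197, 1424 and 1920 across LH3-AL, with overlap between all groups. The difference of -0.28 ± 0.15 (SE) between GFP-AL and GFP-Veh was not called (limma adjusted p = 0.178), but with quantile normalization it was -0.74 and called (adjusted p = 0.00127). In LH3-AL against GFP-AL the difference was 0.20 ± 0.15 (adjusted p = 0.338), and 0.43 with quantile normalization (adjusted p = 0.0324). Set against H2-D1 within each library, B2m set GFP-AL apart, while GFP-Veh and LH3-AL overlapped. The ratio of B2m to H2-D1 was 5.20, 5.54, 5.70, 5.21 and 5.35 across GFP-Veh, 4.40, 3.54, 2.84, 3.93 and 4.15 across GFP-AL and 5.75, 5.60, 5.16, 6.15 and 5.99 across LH3-AL. All 5 GFP-AL libraries lay below all 10 others. This ratio was picked after its values were seen and was given no test; it shows unequal change of the pair and not which of them moved.

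**Figure D4:**
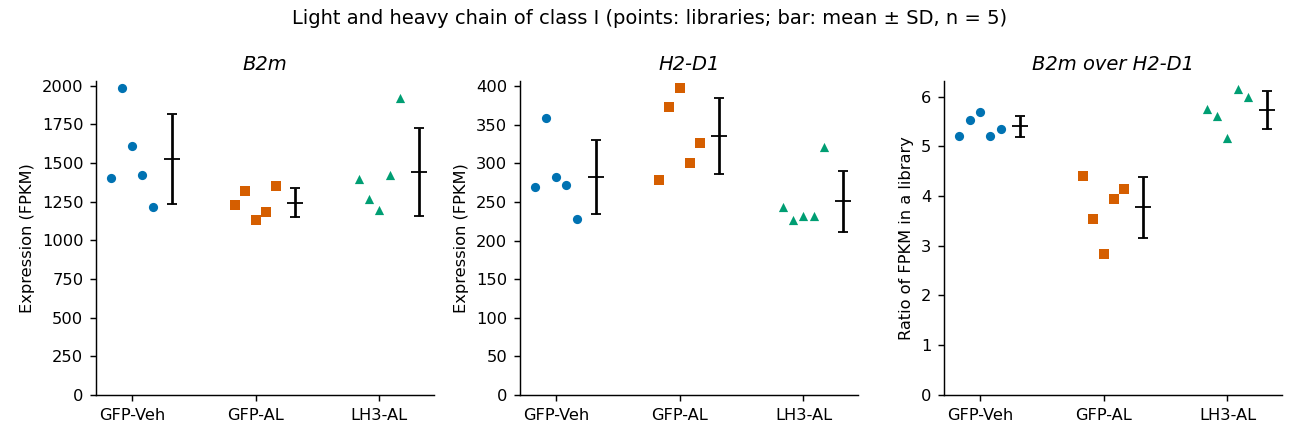
FPKM of B2m (left) and H2-D1 (middle) and their ratio (right) in each library (points) with mean ± SD (n = 5) per group. The ratio lies between 2.84 and 4.40 in GFP-AL and between 5.16 and 6.15 in the other groups, while the levels of either gene overlap.

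Genes for transport and control of class I were not called in any comparison. Tap1 read 1.96, 2.55, 2.02, 2.16 and 1.77 FPKM across GFP-Veh, 2.61, 2.23, 3.85, 2.14 and 2.45 across GFP-AL and 2.28, 1.99, 1.83, 1.81 and 2.81 across LH3-AL, and its differences were 0.23 ± 0.13 (SE) in GFP-AL against GFP-Veh and -0.21 ± 0.13 in LH3-AL against GFP-AL (limma adjusted p = 0.189 and 0.222). GFP-AL 3 was highest and the groups overlapped. Tap1 shares exon sequence with Psmb9 on the opposite strand, and use of strand in counting was not given in the sources used here. Nlrc5 read 2.57, 2.11, 2.48, 2.61 and 1.82 FPKM across GFP-Veh, 1.32, 1.91, 1.34, 1.53 and 2.28 across GFP-AL and 2.20, 1.64, 1.65, 2.17 and 2.40 across LH3-AL. Its difference of -0.31 ± 0.12 in GFP-AL against GFP-Veh missed the threshold (limma adjusted p = 0.0624), and it passed without GFP-Veh 5 or without GFP-AL 5 (adjusted p 0.0226 and 0.0460). The other 10 class I genes tested, among them Tapbp, Tap2 and the heavy chains H2-Q4, H2-Q6, H2-Q7, H2-T22, H2-T23 and H2-M3, were not called either. Without GFP-AL 5, which had the highest H2-Q5 of its group, H2-Q5, H2-Q7 and H2-Q6 were called lower in GFP-AL against GFP-Veh (-0.57, -0.61 and -0.59; adjusted p = 0.00581, 0.0113 and 0.0344) and H2-Q5 higher in LH3-AL against GFP-AL (0.42, adjusted p = 0.0286). H2-Q5 was also called without GFP-Veh 2 (adjusted p = 0.0491). With all libraries the differences of the 10 ran from -0.44 to 0.17 in GFP-AL against GFP-Veh (limma adjusted p 0.0696 to 0.973), 6 of them below 0. In LH3-AL against GFP-AL they ran from -0.29 to 0.27 (adjusted p 0.149 to 0.903).

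The main class II chains and Cd74 had the same highest, second and lowest libraries. H2-Aa, the A alpha chain (chromosome 17, 34282744 to 34287823, minus strand), read 17.6, 40.6, 16.3, 22.2 and 18.4 FPKM across GFP-Veh, 11.1, 23.3, 6.51, 13.6 and 14.6 across GFP-AL and 13.3, 18.3, 16.7, 18.0 and 12.9 across LH3-AL. H2-Ab1, the A beta chain, read 19.4, 44.4, 17.1, 26.7 and 18.1 FPKM across GFP-Veh, 12.5, 29.3, 10.5, 13.7 and 16.4 across GFP-AL and 14.8, 18.8, 17.8, 18.6 and 15.3 across LH3-AL. For both A chains GFP-Veh 2 was highest, GFP-AL 2 second and GFP-AL 3 lowest. H2-Eb1, the E beta chain, read 32.2, 80.8, 26.6, 41.1 and 27.6 FPKM across GFP-Veh, 19.0, 47.3, 17.3, 22.3 and 24.1 across GFP-AL and 22.0, 30.1, 26.2, 29.8 and 22.0 across LH3-AL. Cd74, the invariant chain, read 44.5, 116, 42.5, 57.0 and 44.5 FPKM across GFP-Veh, 34.9, 80.8, 32.4, 41.0 and 38.8 across GFP-AL and 37.4, 48.4, 48.6, 44.5 and 36.4 across LH3-AL. The same 3 libraries held the highest, second and lowest places for these too. H2-Aa spanned 6.23-fold over the 15 libraries, its GFP-AL mean was 0.601 times its GFP-Veh mean, and the ratio of H2-Ab1 to H2-Aa stayed between 0.985 and 1.61.

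None of these 4 genes was called in the fit used throughout, and 3 of them were called without GFP-AL 2. The differences with all libraries in GFP-AL against GFP-Veh were -0.72 ± 0.27 (SE) for H2-Aa, -0.58 ± 0.26 for H2-Ab1, -0.63 ± 0.29 for H2-Eb1 and -0.38 ± 0.27 for Cd74 (limma adjusted p = 0.0620, 0.108, 0.115 and 0.306). Leaving out GFP-AL 2 gave -0.92, -0.80 and -0.86 for H2-Aa, H2-Ab1 and H2-Eb1 (adjusted p = 0.0158, 0.0174 and 0.0231). Leaving out GFP-Veh 2, GFP-AL 2 and GFP-AL 3 together, a choice made after the values were seen, gave -0.48, -0.48 and -0.51 (adjusted p = 0.0317, 0.0332 and 0.0345). H2-Aa also passed with quantile normalization (-0.71, adjusted p = 0.0419) and array weights (adjusted p = 0.0358), and H2-Ab1 with array weights (adjusted p = 0.0491). Cd74 was called in none of 20 alternatives. Of 20 alternatives each, 15 left H2-Aa uncalled, 16 H2-Ab1 and 17 H2-Eb1 (limma adjusted p up to 0.162, 0.327 and 0.373). The smallest differences among the 20 were -0.48, -0.35 and -0.36. Without GFP-Veh 2 alone, the highest library for all 4 genes, none of them was called. The 4 genes differed in LH3-AL against GFP-AL by -0.01 to 0.27 (adjusted p 0.473 to 0.988), with intervals reaching from -0.58 to 0.85. The LH3-AL libraries sat close together for all 4 genes and below GFP-Veh 2.

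Enzymes that prepare class II molecules and their peptides took another course. Of the 6 matched genes of that list, all rose in GFP-AL against GFP-Veh (10.8% of all genes did), and all fell in LH3-AL against GFP-AL (11.4%). Ctss, cathepsin S, which trims the invariant chain, was 1.60 ± 0.19 (SE) higher in GFP-AL than in GFP-Veh (limma adjusted p = 4.73e-05), and fell by 1.65 ± 0.19 in LH3-AL against GFP-AL (adjusted p = 7.53e-05). Lgmn, an asparagine endopeptidase, rose by 1.12 ± 0.14 and fell by 1.17 ± 0.14, and Ifi30, a thiol reductase of endosomes, rose by 1.08 ± 0.18 and fell by 0.96 ± 0.18. Ctsd, Ctsb and Ctsl rose by 0.67, 0.65 and 0.54. The list median was 0.88 in GFP-AL against GFP-Veh, beside -0.09 for all genes, and -0.83 in LH3-AL against GFP-AL. With quantile normalization 4 of the 6 fell in LH3-AL against GFP-AL, Ctsb and Ctsd being lost. These enzymes serve lysosomes in general, not class II alone. The ratio of Ctss to H2-Aa lay between 1.69 and 2.99 for GFP-Veh, between 8.00 and 31.5 for GFP-AL and between 2.38 and 4.43 for LH3-AL.

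**Figure D5:**
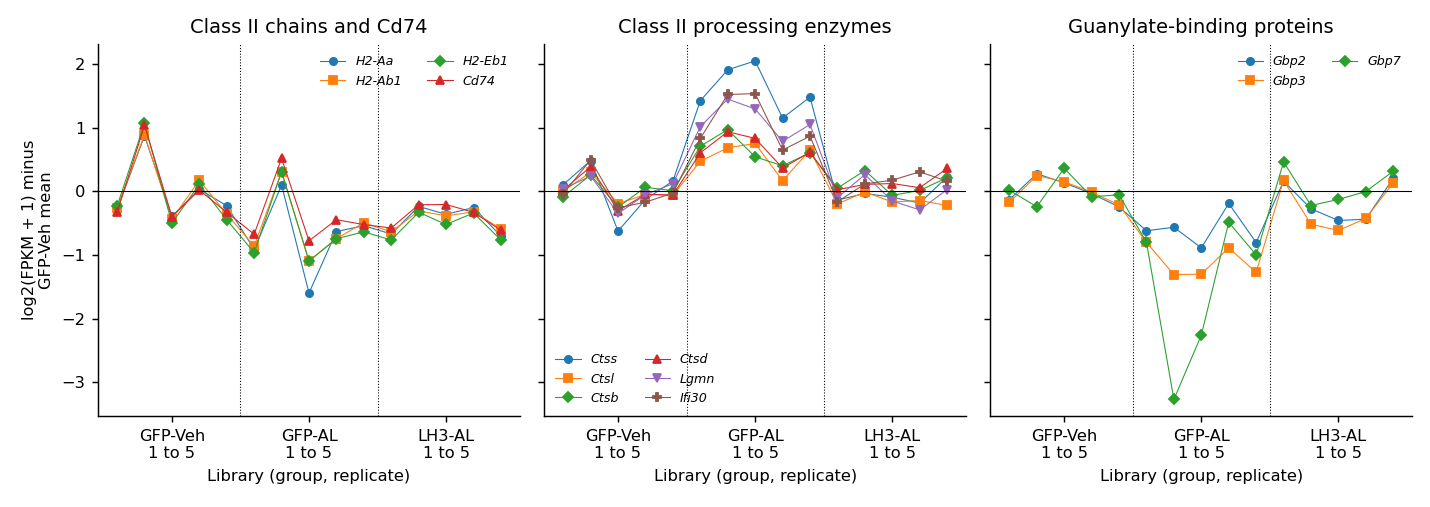
Log2(FPKM + 1) minus the GFP-Veh mean (y axis) in each of 15 libraries (x axis, groups set apart by dotted lines) for 4 class II genes, 6 class II processing enzymes and 3 guanylate-binding proteins. The class II genes peak together in GFP-Veh 2 and GFP-AL 2, whereas the 6 enzymes are above 0 in every GFP-AL library; the lines join libraries that have no order.

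Of the peptide editors of class II, H2-DMb1 was called lower in LH3-AL against GFP-AL. H2-DMb1, the DM beta chain (chromosome 17, 34153072 to 34160230, plus strand), read 4.59, 6.48, 3.76, 4.37 and 3.72 FPKM across GFP-Veh, 4.34, 7.21, 4.79, 3.39 and 4.10 across GFP-AL and 2.76, 3.77, 3.13, 3.44 and 2.70 across LH3-AL. GFP-AL 2 was highest and GFP-Veh 2 second, and LH3-AL lay low with overlap. The difference in LH3-AL against GFP-AL was -0.44 ± 0.16 (SE; limma adjusted p = 0.0493; exact permutation p = 0.0238). The call was lost in 14 of 19 alternatives, including the omission of any LH3-AL library or of GFP-AL 1, 2, 3 or 5 (adjusted p 0.0515 to 0.112). In GFP-AL against GFP-Veh H2-DMb1 differed by 0.03 ± 0.16 (adjusted p = 0.893). H2-DMa, the DM alpha chain, ranged from 3.09 to 7.57 FPKM and was not called, with differences of 0.17 ± 0.17 and -0.33 ± 0.17 in the first 2 comparisons. H2-Ke6, a dehydrogenase gene outside antigen presentation, ranged from 5.55 to 10.1 FPKM and was not called.

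The 14 genes below the filter had means of 0.00726 to 0.485 FPKM, 9 of class I and 5 of class II. Ciita (chromosome 16, 10480059 to 10528418, plus strand) read 0.239, 0.402, 0.462, 0.478 and 0.205 FPKM across GFP-Veh, 0.112, 0.292, 0, 0.112 and 0.245 across GFP-AL and 0.232, 0.293, 0.253, 0.225 and 0.198 across LH3-AL. The GFP-AL 3 value lay below 0 in the deposited table and was set to 0, and the groups overlapped. In a fit with no filter its difference in GFP-AL against GFP-Veh was -0.24 ± 0.07 (SE; limma adjusted p = 0.0322), and H2-Ob, a chain of the DM inhibitor H2-O, differed by -0.23 ± 0.06 (adjusted p = 0.0137). At such levels the log2(FPKM + 1) scale understates a fold change. H2-Ob read 0.404, 0.621, 0.462, 0.576 and 0.387 FPKM across GFP-Veh, 0.271, 0.255, 0.207, 0.268 and 0.362 across GFP-AL and 0.403, 0.385, 0.287, 0.255 and 0.465 across LH3-AL, with no overlap between GFP-AL and GFP-Veh. H2-Oa, H2-DMb2 and H2-Eb2 reached at most 0.545, 0.639 and 0.170 FPKM and were not called in that fit. Of the 9 low class I genes, 8 were not called in it and reached at most 0.965 FPKM (the pseudogene H2-M6-ps). H2-M6-ps read 0.609 to 0.965 FPKM in LH3-AL and 0 to 0.418 in GFP-Veh, without overlap (limma adjusted p = 0.292 in that fit). Calls in the fit with no filter were not set against the share of all genes called in it.

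H2-Q10, which encodes a secreted class I molecule made chiefly by the liver, stood higher in every GFP-AL library than in any other. It read 0.183, 0.0699, 0.0983, 0.221 and 0.183 FPKM across GFP-Veh, 0.260, 1.43, 0.371, 0.301 and 1.34 across GFP-AL and 0.0567, 0.106, 0.0699, 0.0769 and 0.0952 across LH3-AL. GFP-AL 2 and 5 stood out, and GFP-AL overlapped with neither other group. In the fit with no filter it was 0.53 ± 0.16 (SE) higher in GFP-AL than in GFP-Veh (limma adjusted p = 0.0320) and fell by 0.62 ± 0.16 in LH3-AL against GFP-AL (adjusted p = 0.0170). The neutrophil marker sums were highest in the same 2 libraries, 845 FPKM in GFP-AL 2 and 386 in GFP-AL 5 against 94.1 to 273 in the other GFP-AL libraries. They were 71.6 to 210 FPKM in GFP-Veh and 32.3 to 55.6 in LH3-AL. Unlike H2-Q10, these sums overlapped between GFP-AL and GFP-Veh. The part of neutrophils in the result was not tested.

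The authors' deposited tables list few of these genes. In the authors' deposited table for GFP-AL against GFP-Veh, H2-T24 has a log2 fold change of -1.43 (q-value 0.0103) and H2-Q10 one of 2.30 (q-value 2.40e-04). The authors' deposited table named for LH3-AL against GFP-Veh lists H2-T24 at 1.72 (q-value 0.00193), H2-Q1 at 1.13 (q-value 0.0121) and H2-Q10 at -3.20 (q-value 1.30e-07). All 1746 genes in the authors' deposited table of that name have the sign of LH3-AL minus GFP-AL in the FPKM values, and 58.8% have that of LH3-AL minus GFP-Veh. No other gene of the 39 is in the authors' deposited tables, which hold only genes with an absolute log2 fold change of at least 1.

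Among genes that supply and load class I peptides, those called in GFP-AL were all lower. Of 10 genes of class I loading and peptide supply, 5 fell in GFP-AL against GFP-Veh and none rose (17.7% and 10.8% of all genes), with a list median of -0.30 beside -0.09 for all genes. They were the immunoproteasome subunits Psmb9 (-0.71 ± 0.14, SE; limma adjusted p = 0.00152) and Psmb10 (-0.57 ± 0.18), the peptide trimmer Erap1 (-0.66 ± 0.13), the loading factor Tapbpl (-0.39 ± 0.10) and the chaperone Calr (-0.49 ± 0.16). In LH3-AL against GFP-AL 3 of the 10 rose (17.0% of all genes), Erap1 by 0.57, Psmb9 by 0.49 and Tapbpl by 0.28, and the median was 0.15 beside 0.08. With median-of-ratios scaling 3 of the 10 fell in GFP-AL against GFP-Veh, and with quantile normalization 7. Psmb9 shares exon sequence with Tap1, so reads of the pair may be split.

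Interferon gamma signalling, the main inducer of both classes, did not move as a block. Of 16 genes, 5 rose and 5 fell in GFP-AL against GFP-Veh, where 10.8% of all genes rose and 17.7% fell. The receptor chains Ifngr1 and Ifngr2 and the kinases Jak1 and Jak2 rose by 0.26 to 0.40, and the myeloid factor Irf8 by 1.36. The guanylate-binding proteins Gbp2, Gbp3 and Gbp7 fell by 0.61, 1.11 and 1.56, the GTPase Igtp by 0.70 and Irf9 by 0.45. In LH3-AL against GFP-AL the 3 guanylate-binding proteins and Iigp1 rose, by 0.45 to 1.65, and the receptor chains, Jak1, Jak2 and Irf8 fell. Without GFP-Veh 2, GFP-AL 2 and GFP-AL 3, a choice made after the values were seen, 3 rose and 4 fell in GFP-AL against GFP-Veh. Of 6 tested factors of the class II promoter, Nfya, a subunit of NF-Y, fell by 0.61 ± 0.17 (SE) in GFP-AL against GFP-Veh (limma adjusted p = 0.0157), and none was called in LH3-AL against GFP-AL.

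Class I-like molecules outside the H2 names split in direction, against the same shares of all genes. Of 5 tested, Procr, the endothelial protein C receptor, rose by 1.56 in GFP-AL against GFP-Veh, while Fcgrt, the neonatal Fc receptor, fell by 0.73 and Mill2 fell by 1.21. Procr fell by 1.42 in LH3-AL against GFP-AL, and Fcgrt and Mill2 rose by 0.55 and 1.09. Of 5 tested costimulatory and adhesion genes, Icam1 rose by 1.73, Cd86 by 0.81 and Icosl by 0.67 in GFP-AL against GFP-Veh, and they fell in LH3-AL against GFP-AL, by 1.30, 0.76 and 0.74. No gene of any pathway list passed limma's threshold in LH3-AL against GFP-Veh.

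Markers of cells that carry class II moved in both directions in GFP-AL. Of all genes, 10.8% were called higher and 17.7% lower in GFP-AL against GFP-Veh. The shares in LH3-AL against GFP-AL were 17.0% and 11.4%. Of 8 dendritic cell markers 2 passed the filter, and both fell in GFP-AL against GFP-Veh, Cd209a by 1.77 and Zbtb46 by 0.52, and rose in LH3-AL against GFP-AL. Zbtb46 was not called in GFP-AL against GFP-Veh under either other scaling, nor in either comparison without GFP-Veh 2, GFP-AL 2 and GFP-AL 3. Among the 6 below the filter, Itgax, Ccr7, Batf3 and Xcr1 had means that went the other way, while those of Flt3 and Clec9a followed the tested pair. Xcr1 was close to 0 and overlapped between groups, with means of 0.0159 (GFP-Veh), 0.0219 (GFP-AL) and 0.0177 FPKM (LH3-AL). Mean Itgax was 0.435 FPKM for GFP-Veh, 1.04 for GFP-AL and 0.395 for LH3-AL, with no overlap of GFP-AL with either group. Ccr7 averaged 0.452, 0.814 and 0.337 FPKM and Batf3 0.191, 0.371 and 0.154 in the same order, both with overlap of GFP-AL and GFP-Veh. The sum of the 8 markers, most of it Cd209a and Zbtb46, was 14.8 to 19.4 FPKM in GFP-Veh, 6.90 to 10.8 in GFP-AL and 12.8 to 17.3 in LH3-AL. Which cells of the vessel preparation carried Cd209a and Zbtb46 was not tested. Cd79a, the one B cell marker tested, fell by 0.73 in GFP-AL against GFP-Veh, a call lost without the same 3 libraries, and the 5 B cell markers summed to at most 6.53 FPKM in any library. Of 5 tested markers of perivascular macrophages 3 rose in GFP-AL against GFP-Veh (Cd163, Lyve1 and Pf4), with sums of 20.6 to 36.1 FPKM in GFP-Veh, 42.6 to 75.4 in GFP-AL and 24.2 to 39.8 in LH3-AL. Of 3 tested monocyte markers Lyz2 and Fcgr1 rose. Their list summed to 92.3 to 168 FPKM in GFP-Veh, 223 to 348 in GFP-AL and 93.4 to 151 in LH3-AL. Of 7 endothelial markers Pecam1, Cdh5 and Esam rose in GFP-AL against GFP-Veh and fell in LH3-AL against GFP-AL, and the rest were not called. With quantile normalization 2 of the 7 rose and 1 fell in these comparisons. Of 6 mural cell markers Rgs5 and Myh11 fell in GFP-AL against GFP-Veh, and none did without the same 3 libraries. Rgs5 rose in LH3-AL against GFP-AL. Among markers of brain cells outside the vessel wall, 3 of 4 of oligodendrocytes fell in GFP-AL against GFP-Veh, and 1 of 4 of astrocytes rose and 2 fell. The 4 neuron markers differed by -0.45 to 0.19 and were not called (adjusted p 0.0974 to 0.788). The part of these cell types in the values of the MHC genes was not tested.

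The libraries with high class II differed in other markers. GFP-Veh 2 had the highest choroid plexus sum, 9123 FPKM against 3622 to 4877 in the other GFP-Veh libraries, the highest sum of T and NK cell markers, 8.94 FPKM, and the highest dendritic sum, 19.4 FPKM. GFP-AL 2 had a choroid plexus sum of 2700 FPKM, within the 1958 to 3073 of its group, and the highest monocyte sum of all libraries, 348 FPKM. GFP-AL 3, lowest for class II, had the lowest dendritic sum, 6.90 FPKM, and the lowest B cell sum, 1.28 FPKM. Of the 8 T and NK cell markers none passed the filter. The part of these in the class II levels was not tested.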

How the data were processed

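Members and gene lists were chosen with earlier results of these data known. The authors deposited expression as FPKM (fragments scaled to transcript length and library size) for 22557 genes and 15 libraries, per the file headers. Of the values 5.99% lie below 0, down to -0.465, by a step not given in the sources used here; these were set to 0. The authors also deposited tables of log2 fold changes with p-values and q-values for 2 contrasts, by a test not given in the sources used here. Alignment used STAR 2.5.1b and the build was mm8, per the submitters' processing notes; strandedness, counting and the handling of multiply mapped reads were not given in the sources used here. Per the labels' protocols, vessels came from brains perfused with cold saline buffer and cleared of pia mater and choroid plexus.

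Rows sharing a symbol (31 symbols) were summed, and symbols written as dates were not matched, which left out 2 of 8 genes of the list of class II proteolysis. Positions are those of GENCODE M21 (GRCm38; 22419 genes matched) and promoters those of RefSeq (GRCm38.p6); none was converted. Groups came from library titles. The test was limma 3.58.1 (R 4.3.3) on log2(FPKM + 1), fitted as group means of the 15 libraries, with trended empirical Bayes, on the 13082 genes averaging 1 FPKM or more, with Benjamini-Hochberg adjustment within a comparison. Fold changes on this scale understate low genes. Exact two-sided permutation tests compared 5 with 5 libraries. The script was tested on simulated data. Depth was estimated from steps between low values; these were whole reads too rarely for a count test. Values of every library are given for H2-K1, H2-D1, B2m, Tap1, Nlrc5, Cd74, H2-Aa, H2-Ab1, H2-Eb1 and Ciita and for other called genes; H2-Q10, H2-Ob and the ratios were added after their values were seen. Of the 39 genes, 12 have an exon that overlaps another gene. The alternatives run were quantile normalization, median-of-ratios scaling, a pseudocount of 0.1, an average of 5 FPKM or more, no filter, array weights, log2 depth as a covariate, a replicate block, only the 2 groups compared and leaving out each library; leaving out 3 libraries together was added after the data were seen. One marker list is not reported here.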

Additional observations from a re-analysis of the deposited data

Results flagged for a closer look

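Of 81 groups of 5 libraries checked for 27 genes, 12 held a library far from the other 4. Chance alone flags about 1 in 20 independent groups. These groups were not independent, since genes that vary together repeat the same library, so the 12 cannot be set against that rate. The causes were not tested.

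For class II genes the library was GFP-Veh 2 or GFP-AL 2. GFP-Veh 2 was highest for Cd74 (116.1 FPKM against 42.5 to 57.0 in the other GFP-Veh libraries), H2-Aa (40.55 against 16.3 to 22.2) and H2-Eb1 (80.84 against 26.6 to 41.1). GFP-AL 2 was highest in its group for Cd74 (80.81 FPKM against 32.4 to 41.0) and H2-Eb1 (47.27 against 17.3 to 24.1).

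For class I genes 4 of 7 such values came from LH3-AL 5. That library was highest in its group for H2-D1 (320.7 FPKM against 226.6 to 243.2), H2-T22 (21.22 against 15.1 to 16.2) and H2-T23 (25.45 against 17.4 to 19.6), and lowest for H2-Q1 (1.615 against 3.23 to 3.65). H2-Q5 was highest in GFP-AL 5 (8.13 FPKM against 3.77 to 4.92), Tap1 in GFP-AL 3 (3.847 against 2.15 to 2.61) and Tap2 in GFP-Veh 2 (27.2 against 17.4 to 19.7).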

How the results depend on the processing

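Across 39 results for named genes and 768 alternative values, 711 stayed on their side of the threshold, 39 lost a call and 18 gained one; no called value reversed. The calls of H2-T24 in both comparisons with GFP-AL, of H2-K2 in GFP-AL against GFP-Veh and of H2-Q1 in LH3-AL against GFP-AL were kept in every alternative run. Of the members, GFP-AL against GFP-Veh gave 3 calls, 5 with no filter, 6 with the replicate block, 5 without GFP-Veh 2, GFP-AL 2 and GFP-AL 3 (added after seeing the data) and 2 to 6 without 1 library each (5 without GFP-AL 2, 6 without GFP-AL 5). LH3-AL against GFP-AL gave 4, 2 with a mean of at least 5 FPKM, 2 without the same 3 libraries and 2 to 4 without 1 library each (2 without GFP-AL 2 or 3 or any of LH3-AL 1 to 4). LH3-AL against GFP-Veh gave 0, 2 with array weights and 0 to 0 without 1 library each.

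Over all genes, GFP-AL against GFP-Veh gave 2174 calls with a mean of at least 5 FPKM, where fewer genes were tested, 2334 with log2 depth as a covariate and 2840 to 4437 without 1 library each. LH3-AL against GFP-AL gave 2109 with at least 5 FPKM and 2658 to 3939 without 1 library each. LH3-AL against GFP-Veh gave 176 from only these 2 groups, 31 with the replicate block, 1 with log2 depth, 1195 with array weights, 158 without the 3 libraries and 27 to 57 without 1 library each. The causes were not tested.

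Replicate numbers did not pair the libraries: the correlation of same-numbered deviations from group means was -0.11 to 0.26, -0.19 to 0.29 and -0.26 to 0.12 in the 3 comparisons, and 4, 3 and 1 of 10 libraries correlated best with their own number. With the replicate block H2-Aa, H2-Ab1 and H2-Eb1 were called for GFP-AL against GFP-Veh (limma adjusted p = 0.0149, 0.0285 and 0.0209), and the H2-D1 call in LH3-AL against GFP-AL was lost (0.0519). Members below 1 FPKM are limited by depth, and close copies by how shared reads were counted.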
